A study of Mus musculus with 12 samples.

Results

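The SPARC family of secreted matrix proteins was followed in single tendon cells through the 8 genes Sparc, Sparcl1, Smoc1, Smoc2, Fstl1, Spock1, Spock2 and Spock3, taken by symbol from the 55418 gene symbols of the count table. In 12 cells, Sparc was seen in every one, Smoc2 and Fstl1 in 7 each, Smoc1 in 2, Sparcl1 and Spock1 in 1 each, and Spock2 and Spock3 in none, where a gene counted as seen in a cell with at least 10 reads. The cells were picked one by one for their green fluorescence from digests of non-injured, untreated Achilles tendons of mice of C57BL/6 background, given as C57BL/6J in the study's methods. All of them carried the ScxGFP transgene, a reporter driven by regulatory sequence of scleraxis, the transcription factor that marks the tendon lineage. 6 cells came from animals with a constitutive knockout of tenomodulin (Tnmd-/- ScxGFP+), a transmembrane glycoprotein of tendon cells, and 6 from wild-type animals (WT ScxGFP+). Per the study's methods, Tnmd is X-linked, and its WT group took in hemizygous males as well as homozygous and heterozygous females. The comparison asks how the loss of Tnmd alters gene expression in tendon lineage cells. The labels tie no cell to an animal, so the cells of a genotype counted as 1 sample, no test between genotypes was run, and intervals cover counting error only.

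SPARC is a matricellular glycoprotein: it is secreted into the matrix and binds collagen and growth factors without being a structural part of the fibre. It holds a follistatin-like module and a calcium-binding module, and its relatives carry versions of the same pair. In tendon and other connective tissue SPARC takes part in the assembly of collagen into fibrils, and mice without it have small, weak collagen fibrils. Sparcl1, also called hevin, is the closest relative in build. The SMOC proteins (Smoc1, Smoc2) add thyroglobulin-like modules and modulate bone morphogenetic protein (BMP) signalling. Fstl1 is a secreted glycoprotein that also acts on BMP and transforming growth factor β signalling, and the testicans (Spock1, Spock2, Spock3) are proteoglycans that act on proteases.

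Library totals ran from 892713 to 10333351 counts in Tnmd-/- and from 4516036 to 13613080 in WT. As read here from the annotation bar of the study's heat map, the study marked 3 cells of each genotype as less degraded (Tnmd-/- cells 9, 10 and 20, WT cells 4, 5 and 10) and 3 as more degraded (Tnmd-/- cells 1, 3 and 7, WT cells 1, 2 and 14), with totals of 6742665 to 13613080 in the former and 892713 to 5991316 in the latter. Tnmd-/- cells 3 and 7 stood apart as the shallowest, and in cell 3 mitochondrial genes took 51.8% of the counts against 1.75% to 7.30% in the other 11 cells. Tendon fibroblast markers summed to 1696 to 87463 CPM (counts per 1000000 counts of the cell) in single Tnmd-/- cells. In single WT cells they summed to 31910 to 176924 CPM. The marker Dcn alone gave 40010 of the pooled 52422 CPM in Tnmd-/- and 56340 of 69982 CPM in WT. Of the 11 markers, Scx, Tnmd, Fmod and Lum had a pooled log2 ratio of Tnmd-/- over WT (1 CPM added) at or below −1. Egr1 lay at 1.27 and the other 6 lay between −1 and 1, and the median of the list was −0.35. Of all 9768 genes with at least 20 counts, 34.9% lay at or below −1 and 35.5% at or above 1. WT cell 5 held 85.0% of all Lum counts, and WT cell 4 held 65.2% of all Scx counts. Scx itself had at least 10 counts in 3 of 6 WT and 0 of 6 Tnmd-/- cells. Tnmd had 8 counts in the sum of the Tnmd-/- cells and 10185 in that of the WT cells, of which 10178 were in WT cell 14, 7 in WT cell 2 and 0 in the other WT cells.

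Sparc was the one member present throughout. The gene (ENSMUSG00000018593, GRCm38 chromosome 11, 55394500 to 55423183, minus strand) has 9 annotated transcripts and 3788 exon bases, none of which is shared with another annotated gene. In the Tnmd-/- cells its level was 3487 CPM in cell 1, 21.9 CPM in cell 3, 53.8 CPM in cell 7, 928 CPM in cell 9, 388 CPM in cell 10 and 541 CPM in cell 20. In the WT cells it was 2609 CPM in cell 1, 1903 CPM in cell 2, 2838 CPM in cell 4, 1529 CPM in cell 5, 3073 CPM in cell 10 and 2242 CPM in cell 14. Tnmd-/- cell 1 lay above every WT cell and the other 5 Tnmd-/- cells lay below every WT cell, so the genotypes overlapped through a single cell. Of the 9768 genes that reached 20 counts in the sum of all cells, 0.0205% had every Tnmd-/- cell below every WT cell, and 19 (0.195%) had at least 5 of 6 Tnmd-/- cells below every WT cell, a rule chosen after the values of Sparc were seen. The study itself named Sparc from these same cells, so its direction here is not independent evidence.

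**Figure D1:**
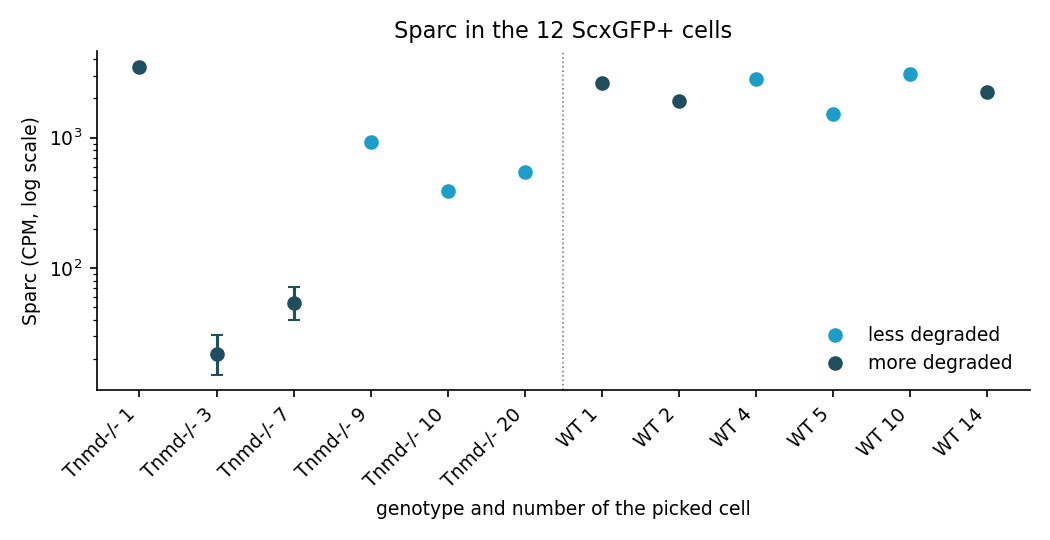
Sparc level in CPM on a log scale (y axis) in each picked cell (x axis), coloured by degradation level, with exact 95% Poisson intervals that are visible for Tnmd-/- cells 3 and 7 alone. The WT cells sit between 1529 and 3073 CPM, while the Tnmd-/- cells run from 21.9 to 3487 CPM.

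In descending order the cells were Tnmd-/- 1, WT 10, WT 4, WT 1, WT 14, WT 2, WT 5, Tnmd-/- 9, Tnmd-/- 20, Tnmd-/- 10, Tnmd-/- 7 and Tnmd-/- 3, and no neighbours in this order had overlapping counting intervals. The lowest levels rested on few reads, 33 counts in cell 3 (21.9 CPM, interval 15.1 to 30.8) and 48 counts in cell 7 (53.8 CPM, interval 39.6 to 71.3). Leaving the mitochondrial genes out of the total gave 45.5 CPM in cell 3 and 58.0 CPM in cell 7, both still below every other cell. No counting intervals were formed on that basis, so the order of cells 3 and 7 there is not settled. When each cell was thinned at random to 892713 counts, Sparc kept 3156, 23, 48, 811, 383 and 513 counts in Tnmd-/- cells 1, 3, 7, 9, 10 and 20, and 1356 to 2709 counts in the WT cells, so cells 3 and 7 were also the lowest at equal depth.

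The 2 genotypes differed in how evenly their cells carried Sparc. Among the 213 genes seen in every cell (2.18% of 9768), the WT cells had a highest over lowest level of 2.01 for Sparc, against a median of 15.7 over these genes. Of the 212 other genes, 4 had a narrower WT range, namely the ribosomal protein genes Rplp0 (1.59) and Rps2 (1.92), the ion transport regulator gene Fxyd5 (1.83) and the ubiquitin gene Ubb (1.95), which were looked up after the value of Sparc was seen. The same ratio was 159 in the Tnmd-/- cells, where 51 of the 212 genes had a wider range and the median was 81.7. Without the shallow cells 3 and 7 the Tnmd-/- range of Sparc was 388 to 3487 CPM, a ratio of 8.99 against a median of 3.98, and 48 genes were wider. The SD of log2(CPM + 1) over the cells was 2.68 in Tnmd-/- and 0.38 in WT.

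Summed over cells, Sparc had 35836 counts in Tnmd-/- and 130556 in WT, which is 1021 and 2443 CPM. The pooled log2 ratio of Tnmd-/- over WT was −1.26 (−1.28 to −1.24), a level 2.39-fold higher in WT. Over all 9768 genes, 34.9% lay at or below −1 and 35.5% at or above 1, so a pooled ratio past 1 in size was common among the genes of these cells. Tnmd-/- cell 1 alone supplied 51.7% of the Tnmd-/- reads of Sparc, and the ratio became −2.07 when it was left out. Without both shallow Tnmd-/- cells the ratio was −1.16.

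The degradation levels gave different values for Sparc. Among the less degraded cells the sums were 17239 counts in Tnmd-/- and 95618 in WT, 630 and 2509 CPM, with a log2 ratio of −1.99 (−2.02 to −1.97), and the 3 Tnmd-/- cells (388 to 928 CPM) lay below the 3 WT cells (1529 to 3073 CPM). In these cells 31.2% of the 9768 genes had a ratio at or below −1, and 2.67% had all Tnmd-/- cells below all WT cells. Among the more degraded cells the sums were 18597 and 34938 counts, 2413 and 2279 CPM, with a ratio of 0.08 (0.06 to 0.11). There Tnmd-/- cell 1 held 99.6% of the Tnmd-/- counts, and the other cells of that genotype, 3 and 7, were the lowest of all 12.

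Set against its relatives per length, in TPM (transcripts per 1000000 transcripts), Sparc was the highest member in 10 of 12 cells. Its TPM was 979 to 1996 in the WT cells, and its share of the family's TPM there ran from 74.3% in cell 5 to nearly all in cell 1. In the Tnmd-/- cells its share was 99.5% in cell 1, 2.18% in cell 3, 89.4% in cell 7, 38.2% in cell 9, 71.0% in cell 10 and 99.5% in cell 20. Both exceptions were Tnmd-/- cells: Spock1 led in cell 3 with 454 TPM against 10.3 TPM for Sparc, and Smoc2 led in cell 9 with 726 TPM against 635 TPM. By TPM, Sparc ranked between 48 and 142 among all genes in the WT cells, and at 61, 1117, 866, 224, 509 and 445 in Tnmd-/- cells 1, 3, 7, 9, 10 and 20.

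**Figure D2:**
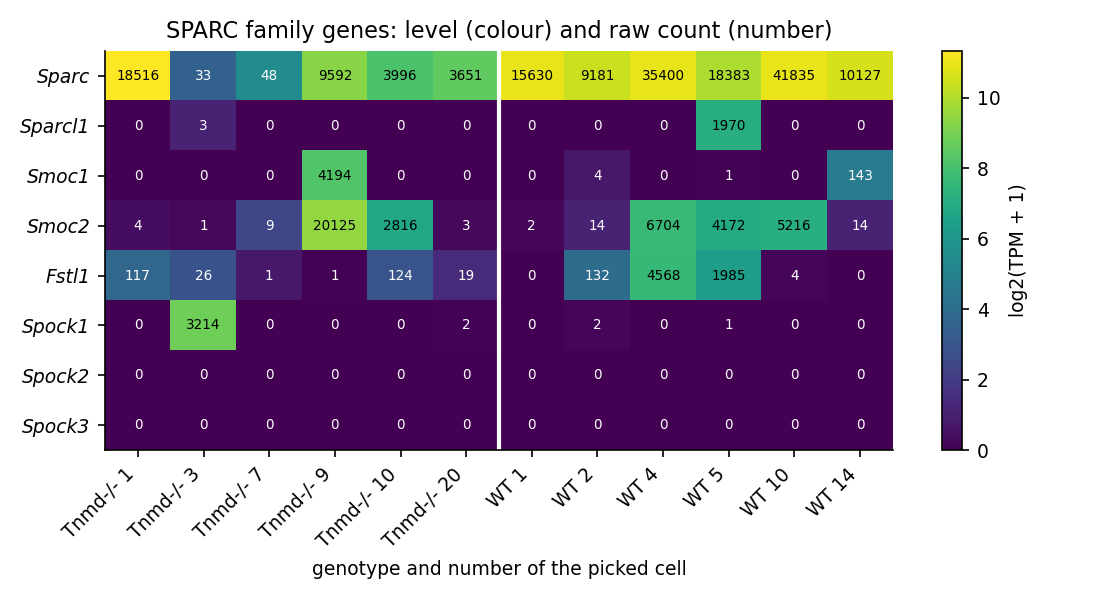
Level of each family gene (rows) in each picked cell (columns) as log2(TPM + 1) by colour, with the raw read count printed in each field and a white line between the genotypes. Sparc fills its whole row, Smoc2 and Fstl1 reach 10 counts in 7 cells each, and Smoc1, Sparcl1 and Spock1 are confined to 2, 1 and 1 cells at that count.

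Smoc2 (ENSMUSG00000023886, chromosome 17, 14279506 to 14404790, plus strand, 6951 exon bases) differed between the degradation levels in both genotypes. In the less degraded cells it had 1948 CPM in Tnmd-/- cell 9, 273 CPM in Tnmd-/- cell 10, 0.445 CPM in Tnmd-/- cell 20, and 537, 347 and 383 CPM in WT cells 4, 5 and 10. In the more degraded cells it had 0.753, 0.665 and 10.1 CPM in Tnmd-/- cells 1, 3 and 7, and 0.334, 2.90 and 3.10 CPM in WT cells 1, 2 and 14. All less degraded cells other than Tnmd-/- cell 20 lay above every more degraded cell, and in the WT cells the levels did not overlap.

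The sums were 39036 counts in the less and 44 in the more degraded cells, 596 and 1.91 CPM, a log2 ratio of 8.29 (7.86 to 8.75) against a median of 0.49 over all 9768 genes, of which 43.2% lay at or above 1. The pattern of at least 5 of 6 less degraded cells above every more degraded cell, a rule chosen after seeing these values, was met by 1.62% of the 9768 genes. Within the WT cells the ratio was 7.75 and 5.33% of genes had less degraded cells all higher. Within the Tnmd-/- cells the ratio was 8.85, with overlap through cell 20, and 35.7% of genes lay at or above 1. Tnmd-/- cell 9 held 87.7% of the less degraded Tnmd-/- counts of Smoc2. Thinned to equal totals, Smoc2 had 1702, 228 and 0 counts in Tnmd-/- cells 9, 10 and 20, 501, 303 and 365 counts in WT cells 4, 5 and 10, and 0 to 9 counts in each more degraded cell. Total counts were higher in every less degraded cell than in any more degraded one, and the part of RNA degradation in the levels of Smoc2 was not tested.

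**Figure D3:**
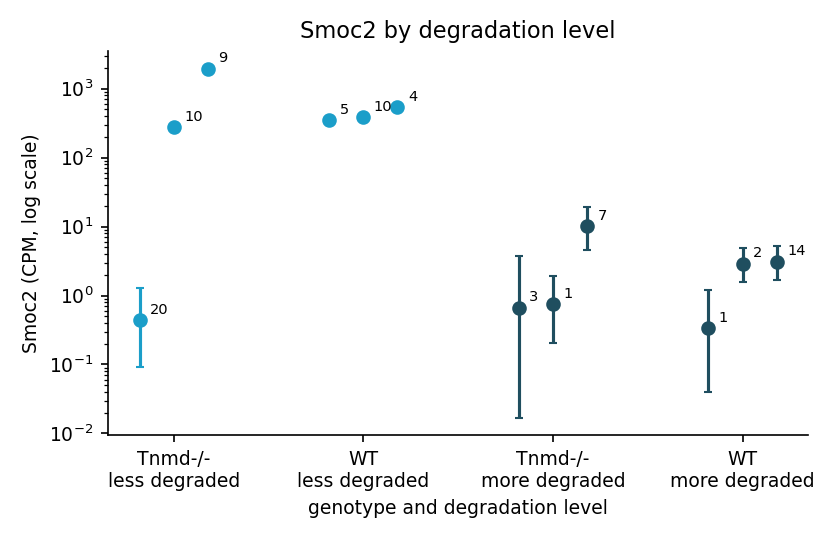
Smoc2 level in CPM on a log scale (y axis) for each picked cell, grouped by degradation level and genotype (x axis), with cell numbers beside the points and exact 95% Poisson intervals. 5 of the 6 less degraded cells lie at 273 to 1948 CPM, while Tnmd-/- cell 20 (0.445 CPM) lies among the more degraded cells at 0.334 to 10.1 CPM.

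Between genotypes the direction of Smoc2 depended on Tnmd-/- cell 9. The sums were 22958 counts in Tnmd-/- and 16122 in WT, 654 and 302 CPM, with a pooled log2 ratio of 1.12 (1.09 to 1.15). Tnmd-/- cell 9 held 87.7% of the Tnmd-/- counts, and without it the ratio was −1.40. Smoc2 was seen in 2 Tnmd-/- and 5 WT cells, or in 2 and 3 after thinning. The difference of the mean log2(CPM + 1) was −0.99.

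Fstl1 (ENSMUSG00000022816, chromosome 16, 37776873 to 37836514, plus strand, 4914 exon bases) was seen in 4 Tnmd-/- and 3 WT cells but reached its high levels in WT alone. It had 22.0, 17.3, 1.12, 0.0968, 12.03 and 2.82 CPM in Tnmd-/- cells 1, 3, 7, 9, 10 and 20. In WT cells 4 and 5 it had 366 and 165 CPM, in WT cell 2 it had 27.4 CPM, in WT cell 10 it had 0.294 CPM, and WT cells 1 and 14 had no count. The genotypes overlapped, since 2 WT cells were lower than every Tnmd-/- cell and 3 were higher.

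The pooled sums of Fstl1 were 288 counts in Tnmd-/- and 6689 in WT, 8.21 and 125 CPM, a log2 ratio of −3.93 (−4.11 to −3.76). WT cell 4 held 68.3% of the WT counts, and its omission gave −2.66. In the less degraded cells, which include WT cells 4 and 5, the ratio was −5.03, and in the more degraded cells, on 144 against 132 counts, it was 1.12 (0.77 to 1.47). Smoc2 and Fstl1 were seen together in 4 cells, each without the other in 3 cells, and neither in the remaining 2.

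The remaining members with reads reached 10 counts in at most 1 cell per genotype. Smoc1 (chromosome 12, 81026808 to 81186414, plus strand), the relative of Smoc2, had 4194 counts (406 CPM) in Tnmd-/- cell 9 and 0 in the other Tnmd-/- cells. In WT it had 143 counts (31.7 CPM) in cell 14, 4 in cell 2, 1 in cell 5 and 0 in the other cells. The pooled log2 ratio of 5.43 (5.19 to 5.68) was set by these cells: without WT cell 14 it was 10.19, and without Tnmd-/- cell 9 the 0 counts of that genotype gave a bound of −4.51, with 3 counts in the sum as the floor. Both cells with Smoc1 also had at least 10 counts of Smoc2, although in WT cell 14 that was 14 counts.

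Sparcl1 (chromosome 5, 104079111 to 104113733, minus strand) had 1970 counts (164 CPM) in WT cell 5, 3 counts (1.99 CPM) in Tnmd-/- cell 3 and none elsewhere. Its pooled log2 ratio was −8.75 (−11.03 to −7.20). Spock1 (chromosome 13, 57421195 to 57908332, minus strand) had 3214 counts (2136 CPM) in Tnmd-/- cell 3, 2 counts in Tnmd-/- cell 20, 2 in WT cell 2 and 1 in WT cell 5. Its pooled log2 ratio was 10.67 (9.12 to 12.95), and without Tnmd-/- cell 3 neither genotype had more than 3 counts, so no ratio was formed. Cell 3 was the cell with 51.8% mitochondrial counts and the lowest Sparc level.

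Reads piled up in a single cell were frequent among all genes. Of the 9768 genes, 39.0% had at least 10 counts in exactly 1 cell, and in 44.2% a single cell held at least 90% of all counts. Sparcl1 and Spock1 met both of these descriptions, the second of which was written after the counts were seen, whereas at least 10 counts in 7 or more cells, met by Sparc, Smoc2 and Fstl1, was found for 14.3% of genes. After thinning to equal totals Sparc alone of the 8 was seen in 7 or more cells.

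Spock2 (chromosome 10, 60106219 to 60135198, plus strand) and Spock3 (chromosome 8, 62951009 to 63357103, plus strand) had 0 counts in all 12 cells. With 3 counts in the sum taken as the limit, 0 counts put an upper bound on the pooled level. The bound was 0.0855 CPM in Tnmd-/- and 0.0561 CPM in WT. In single cells 3 counts stood for 0.220 CPM (WT cell 10) to 3.36 CPM (Tnmd-/- cell 7).

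Taken as a sum of its 8 genes, the family had 66495 counts in Tnmd-/- and 155488 in WT, 1895 and 2910 CPM. The log2 ratio was −0.62 (−0.63 to −0.61) and turned to 0.83 with DESeq2 size factors and equal weight for each cell. Counts are divided by these factors, which were 0.0379 in Tnmd-/- cell 3, the cell with 3214 counts of Spock1, and 0.0319 in Tnmd-/- cell 7. The other cells had factors of 0.558 to 5.01. Without Sparc the sum of the other members was 30659 against 24932 counts, 874 and 467 CPM, and the ratio was 0.91 (0.88 to 0.93). Tnmd-/- cell 9 held 79.3% of the former counts, and its omission left 256 against 467 CPM, a ratio of −0.87. The number of members seen per cell was 2, 3, 1, 3, 3 and 2 in Tnmd-/- cells 1, 3, 7, 9, 10 and 20, and 1, 3, 3, 4, 2 and 3 in WT cells 1, 2, 4, 5, 10 and 14.

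The genes whose levels ordered the 12 cells most as Sparc did were, by Spearman correlation of CPM among the 212 other genes seen in all cells, Bgn (0.895), Clic4 (0.832), Pgd (0.804), Anxa8 (0.790) and Igfbp6 (0.762). Bgn encodes biglycan, a small leucine-rich proteoglycan of the collagen matrix, Clic4 an intracellular chloride channel protein, Pgd an enzyme of the pentose phosphate pathway, Anxa8 an annexin and Igfbp6 a binding protein of insulin-like growth factors. The points share their libraries and the low cells 3 and 7, and the median over the 212 genes was 0.189. Without cells 3 and 7 the correlations over 10 cells were 0.830, 0.709, 0.673, 0.636 and 0.745 in the same order, and 4 of the 5 genes stayed among the first 5. With the Pearson correlation of log2(CPM + 1) in its place, 2 of the 5 remained, and Igfbp6 dropped to rank 78. The correlation of Sparc with the total counts was 0.434 over 12 cells and 0.030 over 10.

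Bgn had 2541, 122, 49.3, 629, 480 and 1357 CPM in Tnmd-/- cells 1, 3, 7, 9, 10 and 20, and 1456, 2016, 1559, 800, 3025 and 1058 CPM in WT cells 1, 2, 4, 5, 10 and 14. The Sparc reads per Bgn read ran from 0.179 in Tnmd-/- cell 3 to 1.48 in Tnmd-/- cell 9, and from 0.944 in WT cell 2 to 2.12 in WT cell 14. The pooled ratio of Bgn was −0.84, and those of Clic4, Pgd, Anxa8 and Igfbp6 were −0.49, −0.57, −1.46 and −0.95, the last of which was −1.84 without Tnmd-/- cell 9.

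**Figure D4:**
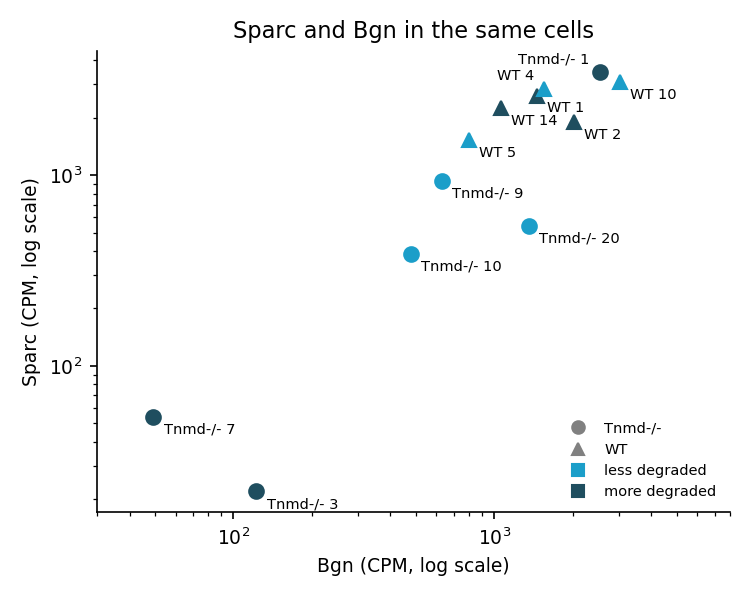
Sparc level against Bgn level, both in CPM on log scales, for each picked cell, with circles for Tnmd-/-, triangles for WT and colour for the degradation level. Tnmd-/- cells 3 and 7 lie apart at 21.9 and 53.8 CPM of Sparc, and Tnmd-/- cell 1 lies among the WT cells at the top right.

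The partners of the family were described by lists, against 34.9% of all 9768 genes at or below −1 and 35.5% at or above 1. Of the 8 listed collagens that SPARC binds, 7 had at least 20 counts, and with 1 CPM added to both levels 5 had a log2 ratio at or below −1, 0 were at or above 1 and 2 lay between, with a median of −2.53 against 0.06 over all genes. Several of these values rested on a single WT cell. Col4a1, a chain of basement membrane collagen, had 16 against 7410 counts (−6.58, or −4.21 without WT cell 4). Col4a2, its partner chain, had 1 against 562 counts (−3.49), 99.8% of them in WT cell 4 and so 1 against 0 without it, and the fibril chain Col5a1 had 0 against 292 (−2.69, all in WT cell 5). Of the chains of type I collagen, the main fibril of tendon, Col1a2 was seen in all 12 cells with a ratio of −0.35, or −0.94 without Tnmd-/- cell 7. Col1a1 was seen in 5 cells with a ratio of −0.18, but 1983 of its 1990 Tnmd-/- counts were in the shallow cell 7, and the ratio was −5.76 without that cell, −5.62 in the less and 1.29 in the more degraded cells.

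Of the 9 listed receptors and the cross-linking enzyme of SPARC, 8 had at least 20 counts, 5 at or below −1 and 1 at or above 1, with a median of −1.35 (34.9% and 35.5% of all genes), or −1.44 with genes at 0 in a genotype set to their bound against 3 counts. The median of the other partner lists was the same either way. Itgb5, an integrin β chain, had 9 against 5919 counts (−6.47, or −3.79 without WT cell 5). Itgav, its α partner, had 1072 against 6467 counts (−1.95), which was −5.37 without Tnmd-/- cell 20 and −1.34 without WT cell 5. Tgm2, the transglutaminase that cross-links SPARC, had 5537 against 28039 counts (−1.73, or −2.91 without Tnmd-/- cell 9). Vcam1, an adhesion receptor, had 59 counts in Tnmd-/- and 0 in WT (1.42), 98.3% of them in cell 3.

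Of the 8 genes listed as growth factors linked to SPARC and their receptors, 6 had at least 20 counts. There 2 lay at or above 1 and 1 at or below −1, with a median of 0.22. These shares lay near or under the 35.5% and 34.9% of all genes. Vegfa, the endothelial growth factor, had 684, 34, 1 and 218 counts in Tnmd-/- cells 1, 3, 7 and 10 and 2 counts in the sum of the WT cells (4.74, or 3.19 without Tnmd-/- cell 1). Pdgfrb, a receptor of platelet-derived growth factor, had 755 against 324 counts (1.67). All 755 were in Tnmd-/- cell 9 and 322 of the 324 in WT cell 5, so the ratio set 1 cell against 1 cell, −2.82 without the former and 4.42 without the latter. Fgf2, a fibroblast growth factor, had 4 against 769 counts (−3.79, or −2.05 without WT cell 14).

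Of the 10 partners of Fstl1 and the SMOC proteins, 8 had at least 20 counts, 5 at or below −1 and 1 at or above 1, with a median of −1.17 (34.9% and 35.5% of all genes). The BMP receptor gene Bmpr2 had 842 against 14296 counts (−3.43), seen in 2 Tnmd-/- and 5 WT cells, with −4.45 without Tnmd-/- cell 20 and −2.27 without WT cell 5. Bmp4, a BMP ligand, had 2 against 2758 counts (−5.64), 99.9% of them in WT cell 10 and so 2 against 2 without it, and the receptor Bmpr1b had 15 against 1487 (−4.34, or −1.12 without WT cell 14). The receptor Bmpr1a had 563 against 288 counts (1.42), but its ratio was −2.08 in the less and 6.14 in the more degraded cells, −1.17 without Tnmd-/- cell 1 and 4.09 without WT cell 4.

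Of the 6 protease targets of the testicans, 3 had at least 20 counts, 2 at or below −1 and 0 at or above 1, with a median of −1.07 (34.9% and 35.5% of all genes). The cathepsin genes Ctsk and Ctsl, which encode lysosomal proteases, had ratios of −1.07 and 0.95, and both signs turned without 1 cell. Leaving out WT cell 4 gave 0.18 for Ctsk, leaving out Tnmd-/- cell 20 gave −3.34, and Ctsl was −1.28 without Tnmd-/- cell 20 and −1.45 in the more degraded cells. Mmp2, a matrix metalloprotease, had 0 against 320 counts (−2.80, or −0.40 without WT cell 4).

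Markers of other cell types moved with some of these cells. Endothelial markers summed to 57.8 CPM in Tnmd-/- and 0.131 CPM in WT, with 4 and 5 of 8 at 0, among them Cdh5 and Emcn in both genotypes. Of the 57.8 CPM, Flt1 gave 53.0, with 99.7% of its counts in Tnmd-/- cell 10. Pecam1 gave 4.65, with 97.6% of its counts in Tnmd-/- cell 1. Immune markers summed to 32.1 and 0.0374 CPM with 5 and 6 of 7 at 0, including Ptprc, and reached 209 CPM in Tnmd-/- cell 1, the cell with the most Sparc. Of the 32.1 CPM, Itgam gave 31.7, with 99.6% of its counts in that cell. Adipocyte markers summed to 39.6 and 0.0561 CPM with 5 of 6 at 0 in each genotype, and reached 922 CPM in Tnmd-/- cell 3, the cell with Spock1. The Tnmd-/- sum was Fabp4 alone, with 99.9% of its counts in that cell. Cartilage markers summed to 9194 and 8112 CPM with 3 of 7 at 0 in each, mostly from Chad (8428 and 8028 CPM). The other 3 were at or above 1, as were 35.5% of all 9768 genes. They were Acan (556 and 28.3 CPM), Sox9 (155 and 36.9 CPM) and Hapln1 (55.1 and 19.5 CPM). Sox9 without Tnmd-/- cell 9 and Hapln1 without Tnmd-/- cell 10 turned to −0.92 and −4.14. Acan had at least 10 counts in 2 Tnmd-/- and 3 WT cells, and its ratio was 6.03 in the less and −6.05 in the more degraded cells. By the same levels Sox9 gave 4.16 and −3.88, Hapln1 1.33 and 0.60, and Chad 0.42 and −2.71. Mural, glial and muscle markers summed to 64.6, 23.1 and 0.969 CPM in Tnmd-/- and 154.5, 44.0 and 0.0187 CPM in WT. Of the mural markers 6 of 7 were at 0 in each genotype, and the sum was Cspg4 alone, with 73.2% of its counts in WT cell 5. Of the glial markers 3 and 4 of 6 were at 0. There Mbp had 419 against 1 counts, 99.8% of them in Tnmd-/- cell 9, and S100b had 377 against 2352, 86.2% of them in WT cell 10. Of the muscle markers 4 and 5 of 6 were at 0. The part of these cell types in the family's levels was not tested.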

How the data were processed

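Smart-Seq2 libraries of 12 single ScxGFP+ cells were analysed. Per the labels, the authors aligned reads with STAR 2.5.1b to GRCm38 and counted them with featureCounts of Subread 2.0.0. The study's methods also name read trimming, removal of reads from other genomes and counting of unique exon reads. The authors deposited these as unnormalized whole-number counts, with no molecular identifiers and no correction for degradation. The exon length in bases stands beside them. Gene positions and transcripts came from the GENCODE annotation of GRCm38, and the exon length of each of the 8 genes was the same there as in the count table.

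Groups came from the labels. Degradation levels were read by eye from a picture of the heat map in which the study marks its cells, and no label or table used here gives them. Pooled CPM is the sum of a gene's counts over the cells of a group, per 1000000 counts of their summed totals, with exact Clopper-Pearson intervals on ratios and exact Poisson intervals on levels at 95%. Where a sum was 0, 3 counts took its place and the ratio is a bound. Genes with 3 counts or fewer in each of both sums got no ratio. TPM used counts over exon length. Over many genes, the 9768 genes with at least 20 counts entered, with 1 CPM added before the logarithm, and a gene was taken as changed past 1 on the log2 scale. The named genes are the 8 members, the 5 genes most like Sparc by Spearman correlation, at most 3 genes of each partner list in each direction, and cell type markers. Col1a1 and Col1a2, Ctsl, and the genes with a narrow WT range were named outside this rule, after their values were seen. The members and lists were chosen with earlier results of these data known.

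Alternatives were the mean CPM of cells, means on the log2(CPM + 1) scale, TMM factors (edgeR 4.0.16) and size factors (DESeq2 1.42.0), totals that leave out mitochondrial genes and the 50 most abundant genes, each degradation level, each cell left out, thinning to 892713 counts, 5 CPM in place of 1 and a minimum of 100 counts. Leaving out Tnmd-/- cells 3 and 7, or the cell with the most counts of a partner, marker or like gene, was added after seeing the data. Scripts were checked on simulated counts and ran in Python 3.11.15 and R 4.3.3. The study's other experiments were not analysed here.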

Additional observations from a re-analysis of the deposited data

Results flagged for a closer look

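In a group of 6 cells, a cell was singled out when the gap to its neighbour made up most of the group's range (Dixon's criterion at 95%). Chance alone flags about 1 in 20 groups of normally distributed values. The rule was applied to CPM without a logarithm, where this rate need not hold, and in sparse counts a gene seen in 1 cell meets it by construction. Of 12 group values of the 6 members with reads, 8 met it. The share of all genes that meet it was not computed, and 39.0% of the 9768 genes had at least 10 counts in exactly 1 cell. Sparc stood out in Tnmd-/- cell 1 with 3487 CPM, against 928 CPM in the next Tnmd-/- cell. Smoc2 stood out in Tnmd-/- cell 9 with 1948 CPM against 273 CPM in the next cell, and Smoc1 in the same cell with 406 CPM against 0 in the others. Smoc1 also stood out in WT cell 14 with 31.7 CPM against 0.829 CPM. Sparcl1 stood out in WT cell 5 with 164 CPM and in Tnmd-/- cell 3 with 1.99 CPM, the other cells being at 0, and the latter value is 3 counts. Spock1 stood out in Tnmd-/- cell 3 with 2136 CPM against 0.297 CPM, and in WT cell 2 with 0.414 CPM against 0.0832 CPM, which is 2 counts against 1.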

How the results depend on the processing

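The pooled log2 ratio of Sparc (−1.26) was −1.39 with equal weight for each cell, −2.90 as the difference of mean log2(CPM + 1), −1.74 with DESeq2 size factors, −1.64 with TMM factors, −1.29 with totals without mitochondrial and top genes, −1.99 in the less and 0.082 in the more degraded cells, −1.16 without Tnmd-/- cells 3 and 7, and −2.07 to −0.93 with each cell left out in turn. For the family sum (−0.62) the same values were −0.66, −1.51, 0.83, −0.46, −0.65, −0.96, 0.31, −0.59, and −1.14 to −0.28. The median of all genes moved from −0.03 (pooled) to −0.18 with equal weights or TMM factors and 0.02 with DESeq2 size factors. The cause of these shifts was not tested. The number of members seen in most cells was 3, and 1 after thinning or in the more degraded cells. Signs turned for Smoc1 in the more degraded cells (−4.62) and without Tnmd-/- cell 9 (−4.51), for Smoc2 in the more degraded cells (−0.11), as the difference of mean log2(CPM + 1) (−0.99) and without Tnmd-/- cell 9 (−1.40), and for Fstl1 in the more degraded cells (1.12). With each cell left out in turn Smoc1 ran from −4.51 to 10.19 and Smoc2 from −1.40 to 1.51. Sparcl1 kept its sign in 18 of 18 alternatives that gave a value and Spock1 in 17 of 17, although without the 1 cell that holds nearly all of their counts, and for Sparcl1 in the more and for Spock1 in the less degraded cells, no ratio was possible. The share of all genes at or above 1 and at or below −1 was 36.4% and 39.2% with a minimum of 100 counts, and 27.5% and 29.0% with 5 CPM added. Without the cell of each genotype that holds most counts, log2 ratios (1 CPM added) past 1 turned sign for Col4a2 (−3.53 and 0.041), Pdgfrb (−2.82 and 4.42), Bmp4 (−5.72 and 0.0093), Bmpr1a (−1.17 and 4.09), Ctsk (−3.34 and 0.18), Tnmd (−7.44 and 0.10), Sox9 (−0.92 and 3.89) and Hapln1 (−4.14 and 5.77), given without the Tnmd-/- and without the WT cell. No paired analysis was possible because no result comes from a test, and no source used here says that equal cell numbers pair cells. Depth limits the members near 0: a sum of 3 counts is 0.0855 CPM in Tnmd-/- and 0.0561 CPM in WT.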
